A study of Mus musculus with 6 samples.

Results

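The nuclear genes for complexes II, III, IV and V of the mitochondrial respiratory chain were followed in haematopoietic stem and progenitor cells (HSPCs) that had been given uridine or its vehicle. Members were the protein-coding genes of the deposited count table whose symbols begin with Sdh (complex II), Uqcr (complex III), Cox4, Cox5, Cox6, Cox7 or Cox8 (complex IV) or Atp5 (complex V). There were 52 of them among 54532 genes, 8 for complex II, 8 for complex III, 18 for complex IV and 18 for complex V. Symbols and not protein function set the membership, so 4 assembly factors of complex II (Sdhaf1 to Sdhaf4), a supercomplex factor (Cox7a2l) and a coupling factor (Atp5s) are included, while Cyc1 and Ndufa4, which belong to complexes III and IV, are not. Both groups, with 3 libraries each, were HSPCs from bone marrow of aged c57bl/6 mice of WT genotype. One was treated with vehicle and the other with uridine, the nucleoside from which cells salvage pyrimidine nucleotides. Cells were in culture before RNA extraction, per the labels, which leave the age of the mice, the dose and the time of exposure unstated, as well as whether the replicates are separate mice or cultures. The p-values therefore measure only the spread between these libraries, which may be technical.

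These complexes sit in the inner mitochondrial membrane. Complex II (succinate dehydrogenase) joins the citric acid cycle to the chain, complex III passes electrons from ubiquinol to cytochrome c, complex IV (cytochrome c oxidase) hands them to oxygen, and complex V (ATP synthase) uses the proton gradient that complexes III and IV help to build. Complex II is encoded by nuclear genes alone, whereas the others also contain subunits made from the mitochondrial genome. Quiescent blood stem cells are known for relying little on respiration, which rises as they become active and differentiate.

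Poly-A selected RNA was sequenced to 16109265 to 18638627 counts per library. A floor of 3 counts corresponded to 0.161 to 0.186 CPM, the unit of counts after division by normalised library size, covering counting error only. The HSPC genes Kit and Cd34 were expressed in every library, at 363 to 386 CPM and 609 to 637 CPM. Markers of other blood cell types moved with treatment. The summed level of 8 monocyte and macrophage markers was 481 to 499 CPM with vehicle and 209 to 213 CPM with uridine, with 8 of 8 called lower. That of 8 neutrophil markers was 2544 to 2610 and 1370 to 1413 CPM, with 6 called lower and 1 higher (Ltf). Most of the neutrophil sum came from Mpo, at 1907 to 1968 CPM with vehicle and 1012 to 1061 CPM with uridine. No monocyte or neutrophil marker was at 0. All 8 erythroid markers summed to 338 to 353 CPM with vehicle and 429 to 434 CPM with uridine, most of it from Car2, with 3 of 5 tested called higher and Hba-a1 at 0 in all libraries. The 6 megakaryocyte markers summed to 2761 to 2821 and 3007 to 3050 CPM, with 3 called higher (Pf4, Itga2b and Gp9) and 2 lower (Ppbp and Vwf), and the 6 mast cell and basophil markers to 118 to 122 and 121 to 135 CPM, with 2 called higher (Prss34 and Cma1) and 1 lower (Mcpt8). The part of these shifts in the results below was not tested, and in bulk RNA fewer cells of a type and less RNA per cell cannot be told apart.

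These nuclear genes took a larger share of the counts in the libraries from uridine-treated HSPCs. The members together took 0.712% to 0.722% of all counts in the vehicle libraries and 0.770% to 0.775% in the uridine libraries. Of the 52 members 48 had enough counts to be tested, and of these 23 rose and 0 fell at an adjusted p under 0.05, where 7.18% of all 14706 tested genes rose and 10.1% fell (edgeR's quasi-likelihood test, adjusted over all tested genes). At an unadjusted p under 0.05 also 0 members fell, and DESeq2's Wald test called 20 higher and 0 lower. The changes were small: the log2 change of the 23 ran from 0.07 to 0.63 with a median of 0.17, and the median of all tested members was 0.11 beside 0.0053 for all tested genes. In 22 tested members every uridine library lay above every vehicle library, which held for 14.7% of all tested genes, and the opposite order was found in 0 members. Among the 23 members that rose 20 were separated in this way, and groups overlapped for Uqcrc2, Atp5d and Atp5j.

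The complexes differed in how many of their genes passed the test. For complex V 13 of 17 tested members rose (median log2 change 0.12), for complex IV 6 of 15 (median 0.06), for complex III 3 of 8 (median 0.12) and for complex II 1 of 8 (median 0.05). The difference between complexes was not tested. Calls also depend on how precisely a gene was measured, so these counts do not rank the complexes by size of change. Atp5a1, at 1121 to 1146 CPM with vehicle, was called at a change of 0.07 (SE 0.016). Sdhaf3, at 5.01 to 6.63 CPM with vehicle, was not called at 0.27 (SE 0.16). Of the 8 genes of complex II 4 are assembly factors, of which 0 rose. Single libraries mattered for complex II, where 0 genes rose without vehicle replicate 1, 2 or 3 or uridine replicate 2 or 3 and the median was 0.09 without vehicle replicate 2, and for the median of complex IV, which was 0.03 without vehicle replicate 1 and 0.13 without uridine replicate 2. The median of complex IV includes 4 tested isoforms known from other tissues, which were near the detection limit or low here, and its 10 ubiquitous subunits had a median of 0.16. The plot of changes by complex shows the spread within each.

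**Figure D1:**
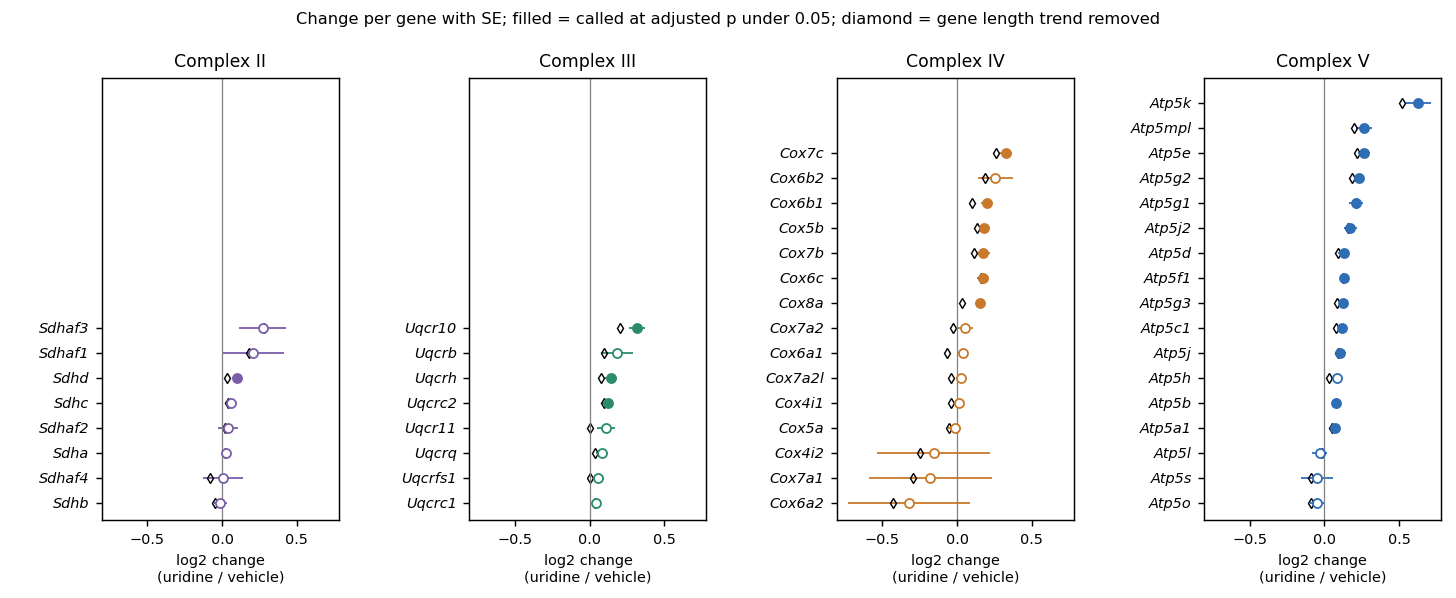
Log2 change of uridine over vehicle (x axis) for each of the 48 tested members in 4 panels by complex, as points with bars of 1 SE from 6 libraries. Filled points are the 23 genes called at an adjusted p under 0.05 and diamonds the value with the trend over gene length removed; complex V has 13 filled points and complex II 1, and Atp5k lies farthest to the right at 0.63.

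Promoter sequences are given for 4 of the genes that rose under every alternative tried, 2 of complex V and 1 each of complexes III and IV, because nuclear respiratory genes are known to share promoter words bound by NRF1 and by ETS factors such as GABP. The stretches run from 120 bases before to 30 after the gene start, which is the RefSeq start or the start in the deposited table where that lies further out, on the strand of the gene (RefSeq, GRCm38.p6). All 4 genes lie on the minus strand, at chr5:108434419-108434568 for Atp5k, chr2:174464076-174464225 for Atp5e, chr13:86046875-86047024 for Cox7c and chr11:4704315-4704464 for Uqcr10. Capitals mark the NRF1 core (CGCATGCG), the ETS word (CCGGAAG, or its reverse complement) and the SP word (GGGCGG).
Atp5k: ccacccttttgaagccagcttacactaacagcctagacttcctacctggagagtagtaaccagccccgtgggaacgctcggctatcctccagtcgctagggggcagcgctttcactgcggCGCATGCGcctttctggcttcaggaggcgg
Atp5e: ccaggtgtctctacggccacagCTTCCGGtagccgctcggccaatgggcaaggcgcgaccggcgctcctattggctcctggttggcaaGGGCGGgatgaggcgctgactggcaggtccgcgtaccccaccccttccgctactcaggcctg
Cox7c: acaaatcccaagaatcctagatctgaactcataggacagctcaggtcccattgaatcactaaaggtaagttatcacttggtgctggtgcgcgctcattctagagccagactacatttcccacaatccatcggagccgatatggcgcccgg
Uqcr10: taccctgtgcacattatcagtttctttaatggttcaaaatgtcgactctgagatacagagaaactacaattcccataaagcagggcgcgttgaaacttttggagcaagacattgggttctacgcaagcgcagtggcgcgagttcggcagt

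The NRF1 core stood at the start of Atp5k, an ETS word and an SP word stood upstream of Atp5e, and none of the words searched was in the stretches of Cox7c and Uqcr10. RefSeq windows of 300 bases (250 before to 50 after the start) were found for 40 of 51 member names, 43 windows in all. Searched on both strands, the NRF1 core was in 7 of 43 member windows (16.3%, against 1.87% of all 32851 windows), the ETS word in 15 (34.9% against 8.86%), the YY1 word AAGATGGC in 3 (7.0% against 2.75%) and GGGCGG in 18 (41.9% against 35.66%). None of the words contains another, and a match describes the letters only. By complex, the ETS word was in 5 of 7 windows of complex II, 2 of 5 of complex III, 3 of 13 of complex IV and 5 of 18 of complex V, and the NRF1 core in 0, 2, 1 and 4 of them. In complex II the windows with the ETS word were those of the assembly factors Sdhaf1, Sdhaf2 and Sdhaf3 and of the subunits Sdhb and Sdhd. Whether the words bear on the changes was not tested.

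In complex V all genes of the catalytic head and of the proton-carrying ring were called higher when no length trend was removed. All 5 genes of the F1 head rose. They are Atp5a1 and Atp5b, which encode the subunits that hold the catalytic sites, and Atp5c1, the rotating shaft. The others are Atp5d and Atp5e, which join the shaft to the ring. With either length correction described below 3 of them rose, Atp5a1, Atp5b and Atp5e. All 3 genes for the c subunit of the ring, Atp5g1, Atp5g2 and Atp5g3, rose, although they differ in sequence outside the mature protein and are transcribed from 3 chromosomes. With the trend over transcript length removed, Atp5g3 changed by 0.04 and did not pass the test (adjusted p = 0.379). Of 4 small membrane subunits 3 rose (Atp5k, Atp5j2 and Atp5mpl), and of 4 tested genes of the peripheral stalk 2 rose (Atp5f1 and Atp5j).

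The abundant catalytic subunits moved little but evenly. Atp5b (chr10:128083273-128090391, mm10) measured 1308, 1331 and 1278 CPM with vehicle and 1396, 1361 and 1379 CPM with uridine. Every uridine library lay above every vehicle library, and the change of 0.08 ± 0.016 (log2, SE), or 5.59%, passed the test (adjusted p = 0.00013). Atp5a1 measured 1146, 1121 and 1146 CPM with vehicle and 1194, 1199 and 1188 CPM with uridine. Its groups did not overlap either, and its change was 0.07 ± 0.016 (adjusted p = 0.00086), the smallest among the members that rose. Atp5e (chr2:174461072-174464105) measured 103, 98.2 and 101 CPM with vehicle and 117, 122 and 124 CPM with uridine. It rose by 0.26 ± 0.038 (adjusted p = 1.1e-07), the largest change in the head, with the groups well apart.

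Atp5c1 rose by 0.12 ± 0.031 (adjusted p = 0.003) and Atp5d by 0.13 ± 0.037 (adjusted p = 0.011), and neither call held throughout. That of Atp5c1 was lost without uridine replicate 1 (adjusted p = 0.0597) and with the trend over deposited or transcript length removed (0.0746 and 0.107). For Atp5d the adjusted p was 0.067 and 0.107 when vehicle replicate 2 or 3 was left out, 0.0678 and 0.0734 when uridine replicate 1 or 2 was left out, 0.176 in DESeq2's Wald test, and 0.0951 and 0.22 with the trend over deposited or transcript length removed.

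Among the ring genes, Atp5g2 (chr15:102662864-102672352) measured 148, 146 and 151 CPM with vehicle and 168, 178 and 177 CPM with uridine. The groups were apart, with a change of 0.23 ± 0.033 (adjusted p = 5.2e-08). Atp5g1 (chr11:96068852-96075670) had 81.3, 72.9 and 77.4 CPM with vehicle and 83.5, 92.9 and 91.4 CPM with uridine. Its lowest uridine library, replicate 1, was close to its highest vehicle library, also replicate 1, and the change was 0.21 ± 0.046 (adjusted p = 0.00036). Atp5g3 (chr2:73908447-73911326) had 246, 249 and 246 CPM with vehicle and 265, 266 and 275 CPM with uridine, and rose by 0.12 ± 0.027 (adjusted p = 0.00035) without overlap. Per kilobase of deposited gene length their vehicle levels were 15.7 ± 0.863, 88.6 ± 1.22 and 113 ± 0.893 RPKM for Atp5g1, Atp5g2 and Atp5g3 (SD, n = 3), so the gene at the lowest level and the one at the highest both rose.

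Atp5k, which encodes the e subunit at the dimer interface of the enzyme, had the largest change of all members. It measured 23.3, 17.7 and 20.8 CPM with vehicle and 30.5, 31.6 and 33.4 CPM with uridine (gene at chr5:108433244-108434448). The lowest uridine library lay above the highest vehicle library, and the change was 0.63 ± 0.083, or 54.4% (adjusted p = 8.2e-09). Atp5mpl, the gene of a small membrane-bound proteolipid of the enzyme (chr12:111961375-111966977), had 52.8, 49.7 and 50.2 CPM with vehicle and 61.5, 58.3 and 63.6 CPM with uridine, a rise of 0.26 ± 0.055 (adjusted p = 0.000155) without overlap. Atp5f1, the b subunit of the peripheral stalk, which keeps the head from turning (chr3:105942698-105960099), had 258, 262 and 249 CPM with vehicle and 283, 277 and 282 CPM with uridine. It rose by 0.13 ± 0.026 (adjusted p = 0.00014), again with the groups apart.

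Atp5j2, another small membrane subunit, rose by 0.17 ± 0.044 (adjusted p = 0.0022). Atp5j, a stalk subunit, rose by 0.11 ± 0.039 with an adjusted p of 0.0465, which went to 0.251 and 0.199 when vehicle replicate 2 or 3 was left out, to 0.0826 and 0.203 when uridine replicate 1 or 3 was, to 0.0926 in DESeq2's Wald test, to 0.0655 without a count filter and to 0.0596 with the replicate number as a block. With the trend over deposited length removed it was 0.125, and with that over transcript length 0.745, at a change of 0.03. The tested complex V genes that did not pass the test were Atp5h (0.08 ± 0.042), Atp5o (-0.05 ± 0.046), which encodes the subunit that ties the stalk to the head, Atp5l (-0.03 ± 0.05) and Atp5s (-0.05 ± 0.11), the last no subunit. Atp5l, the g subunit, is a partner of the e subunit in the membrane, and it measured 66.5, 67.9 and 64.0 CPM with vehicle and 64.5, 62.8 and 66.9 CPM with uridine, so that the groups overlapped. Atp5s was the tested gene of this complex at the lowest level per length, with 14.8, 12.5 and 14.9 CPM with vehicle and 13.1, 14.2 and 13.4 CPM with uridine. A second row named Atp5o (ENSMUSG00000116933) was listed at 0 counts in every library.

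**Figure D2:**
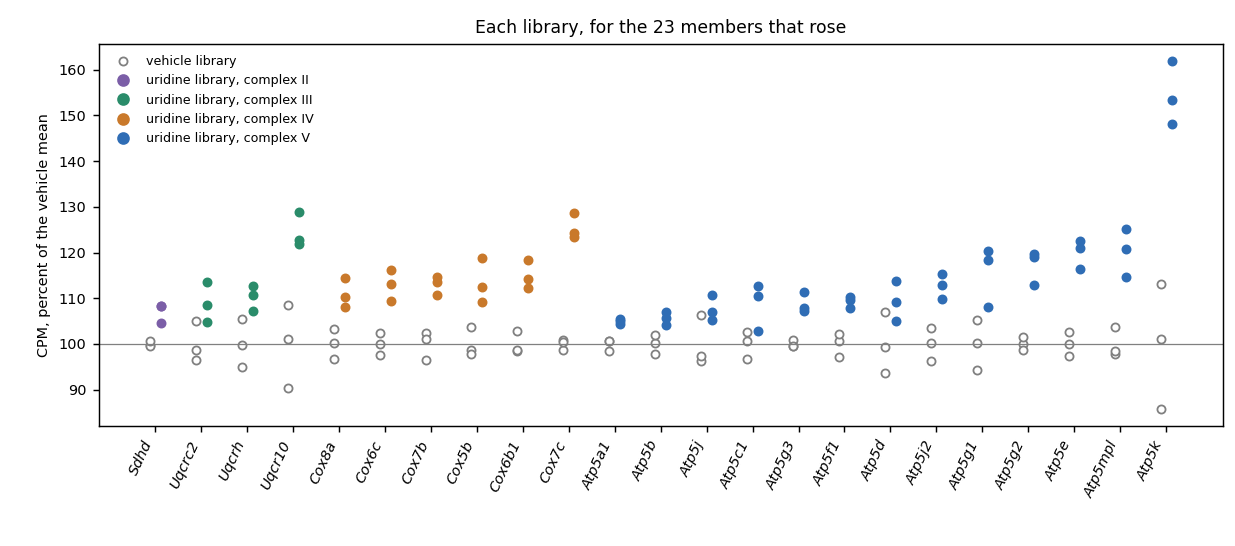
CPM of each library as a percentage of the vehicle mean (y axis) for the 23 members that rose (x axis, grouped by complex). Open points are the 3 vehicle libraries and filled points the 3 uridine libraries; the groups overlap for Uqcrc2, Atp5d and Atp5j and for no other of these genes.

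In complex IV 6 of 10 ubiquitous subunits rose, and 0 of 4 tested isoforms known from other tissues. The 6 were Cox5b, Cox6b1, Cox6c, Cox7b, Cox7c and Cox8a. Cox7c, a small subunit with a single membrane helix (chr13:86044816-86046904), measured 86.2, 84.3 and 85.8 CPM with vehicle and 106, 110 and 105 CPM with uridine. Groups were far apart, the change was 0.33 ± 0.041, and its adjusted p of 1e-09 was the smallest of any member. Cox6b1, a subunit on the intermembrane side (chr7:30616861-30626151), had 98.6, 94.3 and 94.4 CPM with vehicle and 109, 113 and 107 CPM with uridine. It rose by 0.20 ± 0.04 (adjusted p = 6.5e-05) without overlap.

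Cox5b, a zinc-binding subunit on the matrix side (chr1:36691449-36693681), had 109, 115 and 108 CPM with vehicle and 131, 124 and 121 CPM with uridine, a change of 0.18 ± 0.038 (adjusted p = 0.000165). Cox8a (chr19:7215158-7217616), the smallest of the supernumerary subunits, had 167, 162 and 156 CPM with vehicle and 178, 185 and 175 CPM with uridine, a change of 0.15 ± 0.032 (adjusted p = 0.00024). The groups of both genes did not overlap. Cox6c (chr15:35925886-35938246) measured 98.8, 94.2 and 96.6 CPM with vehicle and 112, 106 and 109 CPM with uridine. It rose by 0.17 ± 0.04 (adjusted p = 0.00066), and its 3 uridine libraries were all above the vehicle libraries. Cox7b (chrX:106015700-106022450) measured 82.3, 81.2 and 77.5 CPM with vehicle and 92.0, 88.9 and 91.2 CPM with uridine, and rose by 0.18 ± 0.043 (adjusted p = 0.0017), also without overlap.

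Cox4i1 and Cox5a, whose proteins meet early in assembly of the enzyme, gave 0.01 ± 0.027 and -0.02 ± 0.042, and neither passed the test. Cox4i1 had 268, 262 and 279 CPM with vehicle and 275, 274 and 266 CPM with uridine. The groups overlapped, and the sign turned with the length correction described below (-0.04) and without vehicle replicate 2 (-0.01). Cox6a1, the member of this complex at the highest level per length, had 209, 218 and 207 CPM with vehicle and 221, 218 and 211 CPM with uridine, with overlapping groups and a change of 0.04 ± 0.029 that did not pass the test. Cox7a2 (0.06 ± 0.049) and the supercomplex factor Cox7a2l (0.03 ± 0.033) did not pass it either.

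Isoforms known from other tissues stayed low beside their ubiquitous partners. Cox4i2, the lung isoform, was at 1.70 ± 0.0656 RPKM with vehicle against 174 ± 5.28 RPKM for Cox4i1, the muscle isoform Cox6a2 was at 1.52 ± 0.331 against 301 ± 8.19 RPKM for Cox6a1, and the muscle isoform Cox7a1 was at 1.83 ± 0.22 against 70.4 ± 2.39 RPKM for Cox7a2 (SD, n = 3). Cox6b2, the testis isoform, reached 9.84 ± 0.404 RPKM against 135 ± 3.41 RPKM for Cox6b1. It ranged from 10.4 to 11.3 CPM with vehicle and from 12.4 to 13.7 CPM with uridine, apart in all libraries, with a change of 0.26 ± 0.11 that did not pass the test (adjusted p = 0.119). Cox6a2, the tested gene of this complex at the lowest level per length, had 1.09, 0.787 and 1.22 CPM with vehicle and 0.759, 0.964 and 0.744 CPM with uridine, which overlap. Cox8b had 0 to 4 counts per library, Cox7b2 and Cox8c had 0, and none of the 3 was tested.

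In complex III 3 of 8 genes rose and all 8 had a change above 0. Uqcr10, a small subunit beside the iron-sulfur protein (chr11:4701973-4704342), measured 57.6, 53.8 and 48.0 CPM with vehicle and 64.8, 68.5 and 65.3 CPM with uridine. All uridine libraries were higher, with a change of 0.32 ± 0.055 (adjusted p = 6e-06). Uqcrh, the hinge protein at the docking site of cytochrome c (chr4:116066965-116075071), had 91.7, 82.5 and 86.7 CPM with vehicle and 98.0, 96.3 and 93.3 CPM with uridine. It rose by 0.14 ± 0.043 (adjusted p = 0.013) without overlap.

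Uqcrc2, a core subunit on the matrix side (chr7:120635176-120659524), had 126, 137 and 129 CPM with vehicle and 142, 137 and 149 CPM with uridine, where uridine replicate 2 fell just under vehicle replicate 2, and rose by 0.12 ± 0.036 (adjusted p = 0.0102). Its partner Uqcrc1 (0.04 ± 0.027) and the Rieske protein gene Uqcrfs1 (0.06 ± 0.039) did not pass the test, nor did the small subunit genes Uqcrb (0.18 ± 0.11), Uqcr11 (0.11 ± 0.06) and Uqcrq (0.08 ± 0.042). Leaving out vehicle replicate 1 or 3 took the adjusted p of Uqcrc2 to 0.0837 and 0.0504, and leaving out uridine replicate 3 to 0.12. Leaving out vehicle replicate 2 took that of Uqcrh to 0.142, and leaving out uridine replicate 1 to 0.0733. With the trend over deposited length removed, Uqcrc2 had an adjusted p of 0.0631, and Uqcrh changed by 0.08 (adjusted p = 0.246), or 0.03 with transcript length (0.77).

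In complex II 1 gene of 8 rose. Sdhd, which encodes the smaller membrane anchor (chr9:50596357-50603812), had 124, 124 and 126 CPM with vehicle and 130, 135 and 135 CPM with uridine. The groups were apart by little, and the change was 0.10 ± 0.035 (adjusted p = 0.0402). Its call did not hold when vehicle replicate 1, 2 or 3 was left out (0.086, 0.104 and 0.0712) or uridine replicate 2 or 3 (0.128 and 0.132), in DESeq2's Wald test (0.0601), or without a count filter (0.077). It was also lost with the replicate number as a block (0.0504) and with the trend over deposited or transcript length removed (0.598 and 0.342).

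The other anchor gene, Sdhc, had 108, 111 and 102 CPM with vehicle and 111, 114 and 109 CPM with uridine (0.06 ± 0.039). The flavoprotein gene Sdha, which holds the succinate site, had 378, 385 and 394 CPM with vehicle and 396, 395 and 388 CPM with uridine (0.03 ± 0.023). The iron-sulfur subunit gene Sdhb had 88.6, 94.7 and 94.2 CPM with vehicle and 91.1, 93.7 and 90.4 CPM with uridine (-0.01 ± 0.042). All 3 had overlapping groups and did not pass the test. Of the assembly factors 4 of 4 were tested and 0 rose, with changes from 0.00 for Sdhaf4 to 0.27 ± 0.16 for Sdhaf3. Sdhaf3, the tested gene of this complex at the lowest level per length, had 5.93, 6.63 and 5.01 CPM with vehicle and 6.77, 6.91 and 7.57 CPM with uridine, with no overlap.

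Summed per length, and without removal of a length trend, the RNA counted for each complex was higher in all uridine libraries. RPKM (CPM per kilobase of deposited gene length) were summed over the subunits of each complex. Complex II (4 subunits) summed to 265, 271 and 271 RPKM with vehicle and 277, 282 and 278 RPKM with uridine. Complex III (8 subunits) summed to 557, 553 and 527 RPKM with vehicle and 609, 587 and 610 RPKM with uridine, and complex IV (10 ubiquitous subunits) to 1267, 1262 and 1246 RPKM with vehicle and 1372, 1379 and 1338 RPKM with uridine. For complex V (16 subunits) the sums were 1473, 1453 and 1436 RPKM with vehicle and 1583, 1578 and 1599 RPKM with uridine. In each complex all uridine libraries lay above all vehicle libraries, by 3.71%, 10.4%, 8.32% and 9.1% of the vehicle mean for complexes II, III, IV and V. Dividing by length cancels between libraries, so these sums carry no correction for the length trend described below. With that trend removed over deposited or transcript length, the median log2 change of the 10 ubiquitous subunits of complex IV was 0.07 and 0.06. It was 0.16 without removal, and the sums were not computed with the trend removed. Sums over more subunits are larger by construction: the median subunit was at 67.4, 65.8, 72.9 and 60.0 RPKM with vehicle in the same order, and per kilobase of transcript, in CPM, at 91.1, 115, 159 and 156.

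Within complexes the levels ranged widely. In complex V subunits ran from 10.3 RPKM for Atp5l to 363 RPKM for Atp5a1, in complex IV from 27.1 RPKM for Cox6c to 301 RPKM for Cox6a1 with Cox8a (296 ± 9.87) within its spread, in complex III from 51.2 RPKM for Uqcrc2 to 91.0 RPKM for Uqcr10, and in the 4 subunits of complex II from 32.9 RPKM for Sdhc to 101 RPKM for Sdhd. The low levels of Atp5l and Cox6c came with deposited lengths that merge all exons of the gene, 6443 and 3567 bases, where the median length of their annotated protein-coding transcripts was 544 and 606 bases. Per kilobase of transcript, in CPM, Atp5l was at 122, Cox6c at 159 and the highest member was Atp5b at 681.

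**Figure D3:**
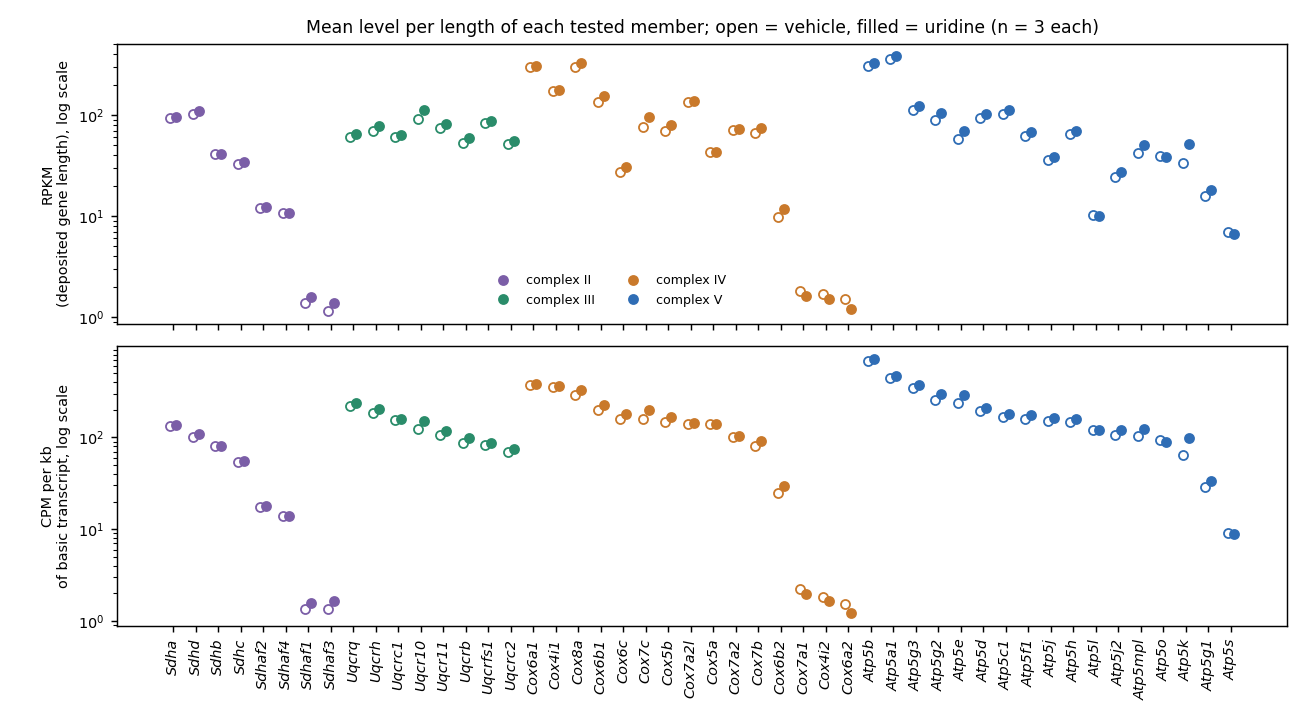
Mean level of the 48 tested members with vehicle (open) and uridine (filled), n = 3 libraries each, on log axes, per kilobase of deposited gene length (upper panel, RPKM) and per kilobase of median transcript length (lower panel), coloured by complex. Atp5l rises from 10.3 to 122 and Cox6c from 27.1 to 159 between the scales, and the isoforms Cox7a1, Cox4i2 and Cox6a2 are lowest in complex IV on both.

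Members are short, and short genes rose more often in the whole comparison. What part length had in the calls was not tested. The median deposited length was 1715.5 bases for tested members and 4430.5 bases for all 12272 tested protein-coding genes, and the median transcript length 736 against 2702.25 bases. When these genes were divided by deposited length into 4 bins of like size, from shortest to longest, the median log2 change of protein-coding genes was 0.05, 0.01, -0.0041 and -0.04, and the share that rose was 12.6%, 7.25%, 6.71% and 3.88%. The shortest bin held 35 of the 48 tested members, of which 16 rose, beside the 12.6% of all genes there, and the next bin held 10, of which 6 rose, beside 7.25%. By transcript length 39 members were in the shortest of 4 bins and 19 of them rose, beside 12.9% of all genes there. In that bin 10 of 14 genes of complex V rose, 6 of 15 of complex IV, 2 of 7 of complex III and 1 of 3 of complex II.

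Among the members themselves the change followed length weakly (Spearman's rho -0.06 with deposited length and -0.26 with transcript length, over 48 genes that share the same 6 libraries, a description). The median deposited length was 2039 bases for complex V, 1108 bases for complex IV, 1300 bases for complex III and 2793 bases for complex II. Median transcript lengths were 747.5 bases for complex V, 645 bases for complex IV, 519.5 bases for complex III and 2049.5 bases for complex II.

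**Figure D4:**
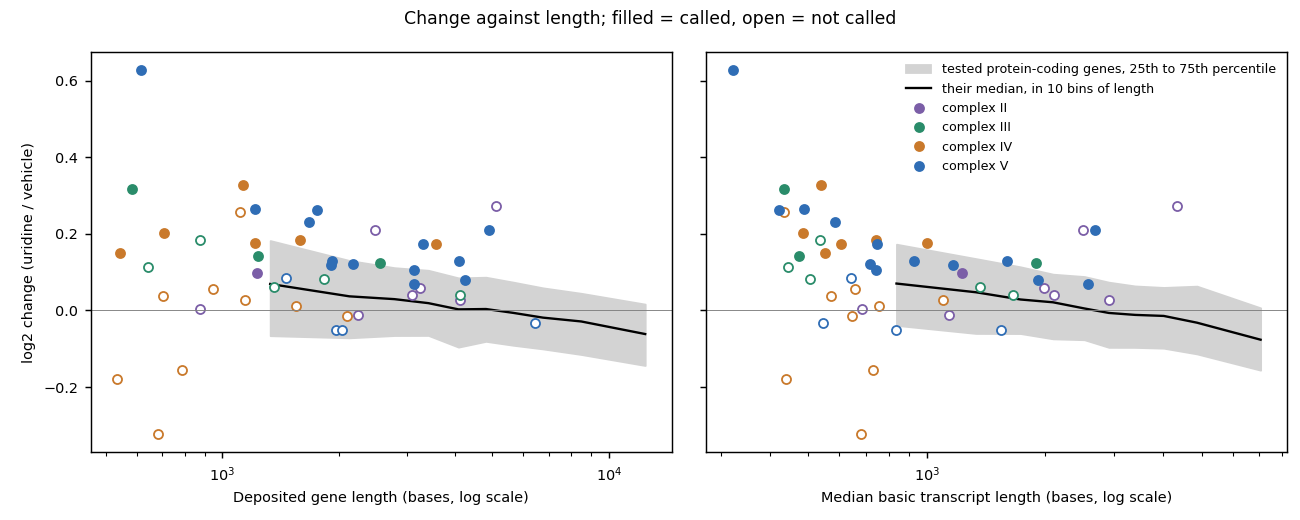
Log2 change of uridine over vehicle (y axis) against deposited gene length (left) and median transcript length (right), both on log axes in bases, for the 48 tested members coloured by complex, filled where called. The line is the median and the band the range from the 25th to the 75th percentile of tested protein-coding genes in 10 bins of length; the filled points within the range of the line lie above it, but 9 of the 23 are shorter than that range on the left and 14 on the right, Atp5k among them.

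Taking the length trend out of each library left fewer calls, and most of those left were in complex V. With the trend over deposited length removed 14 of 48 members rose, beside 6.15% of all tested genes: 10 of complex V, 3 of complex IV, 1 of complex III and 0 of complex II. With the trend over transcript length removed, an alternative chosen after the data had been seen, 11 rose, beside 5.92% of genes: 8 of complex V, 2 of complex III, 1 of complex IV and 0 of complex II. Under these corrections 0 members fell, beside 8.85% and 8.53% of all tested genes. The median over members went from 0.11 to 0.06 and 0.04, that of complex V from 0.12 to 0.09 and 0.07, and that of complex IV from 0.06 to -0.03 and -0.02.

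Under both corrections, 10 genes were called higher, and these were also called under each of the 16 alternatives: Atp5a1, Atp5b, Atp5e, Atp5f1, Atp5g1, Atp5g2, Atp5k, Atp5mpl, Cox7c and Uqcr10. Their log2 changes with the deposited length trend removed included 0.52 for Atp5k (adjusted p = 1.6e-06), 0.26 for Cox7c (8e-07), 0.22 for Atp5e (9.7e-06) and 0.21 for Uqcr10 (0.0045). Atp5mpl was at the edge with transcript length (adjusted p = 0.0499). Cox8a went from 0.15 to 0.03 and 0.05, Cox6b1 from 0.20 to 0.10 and 0.09, and Cox7b from 0.18 to 0.11 and 0.12, and none of these passed the test under either correction. Cox5b, Cox6c, Atp5g3 and Atp5j2 passed with deposited length and not with transcript length (adjusted p = 0.0506, 0.204, 0.379 and 0.153).

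**Figure D5:**
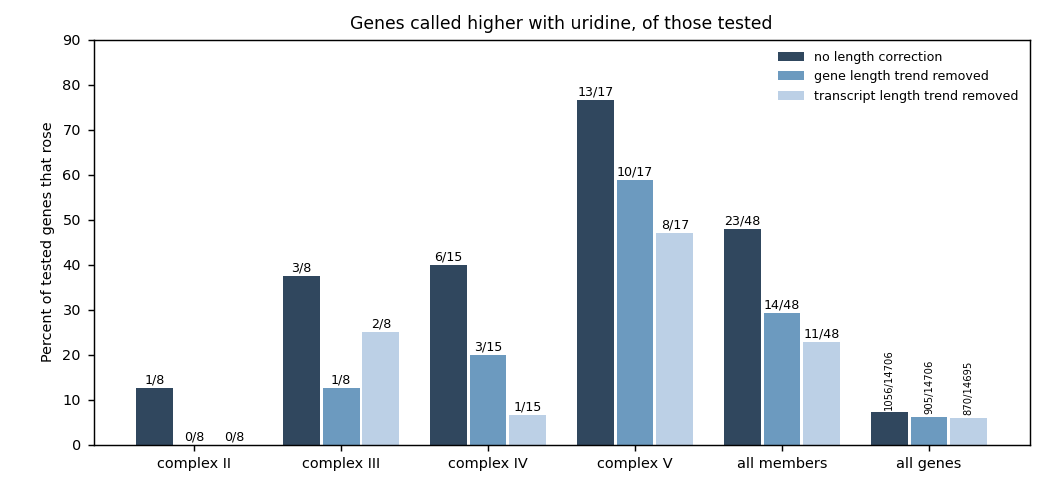
Percentage of tested genes called higher with uridine (y axis, from 0) for each complex, all members and all tested genes, with no length correction and with either length trend removed; labels give genes called over genes tested. Complex V goes from 13 of 17 to 10 and 8, complex IV from 6 of 15 to 3 and 1, and all genes from 1056 to 905 and 870.

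Genes of the same pathway outside the symbol rule are given as counts, to be read against the 7.18% of all tested genes that rose and the 10.1% that fell. Of 36 tested nuclear subunits of complex I 9 rose and 0 fell (median 0.10), with the smallest p-values for Ndufa3 (0.30 ± 0.056, adjusted p = 3.9e-05) and Ndufa13 (0.29 ± 0.059, adjusted p = 0.000105), both accessory subunits. With the trend over deposited length removed 4 of the 36 rose and 0 fell, and with that over transcript length 2 rose, a share near that of all genes, and 1 fell (Ndufb5, an accessory subunit, named after its values were seen, at -0.17, adjusted p = 0.0269). Of 5 subunits and carriers outside the prefixes, Ndufa4, a subunit of complex IV (0.15 ± 0.036, adjusted p = 0.0011), and Cyc1, the cytochrome c1 of complex III (0.11 ± 0.036, adjusted p = 0.025), rose. Neither call held with deposited length (adjusted p = 0.069 and 0.175) or transcript length (0.634 and 0.149), where Atpif1, the inhibitor of ATP synthase, was called lower (-0.15, adjusted p = 0.00553; named after its values were seen).

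Of 32 tested assembly factors 3 rose and 0 fell, a share near that of all genes. Those with the 2 smallest p-values were Higd2a of complex IV (0.29 ± 0.068) and Uqcc3 of complex III (0.34 ± 0.11), and the other was Fmc1 of complex V (0.25 ± 0.085). With the deposited length trend removed 0 of the 32 rose, and with transcript length 1 did, Higd2a (adjusted p = 0.039). Of 6 mitochondrial genes for complexes III to V 4 rose, with the smallest p-values for mt-Cytb, the cytochrome b of complex III (0.26 ± 0.013), and mt-Co2, a core subunit of complex IV (0.47 ± 0.055). With deposited length 2 of the 6 rose and with transcript length 3. Their levels were far apart: over all libraries mt-Co1 was at 7786 to 8385 CPM and mt-Cytb at 2408 to 2933 CPM. Against these, mt-Co2 was at 46.7 to 71.4, mt-Co3 at 24.0 to 38.3, mt-Atp6 at 30.3 to 45.2 and mt-Atp8 at 0.111 to 0.744 CPM. Why mt-Co2, mt-Co3, mt-Atp6 and mt-Atp8 were counted so low was not tested. Of 13 tested regulators of mitochondrial biogenesis 0 rose and 1, Myc, fell (-0.08 ± 0.028, adjusted p = 0.0325), shares that do not stand apart from those of all genes. Nrf1 (0.01 ± 0.051), Gabpa (-0.04 ± 0.042) and Yy1 (-0.05 ± 0.029), which encode factors that bind 3 of the promoter words given above, did not pass the test.

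Some members share their locus with another gene. Exons of Cox4i1, Atp5f1, Atp5j, Cox6c and Atp5d overlap, on the opposite strand, those of Emc8, Wdr77, Gabpa, Vps13b and Cbarp. Other members with such overlaps include Uqcrc2, Uqcrb, Atp5l and Cox5a. The strand setting of the counting is not given in the sources used here, so reads from these overlaps cannot be assigned with certainty. Exons of both Atp5o rows overlap on the same strand, and those of the second row also overlap exons of Donson. What this did to the counts of Atp5o was not tested. Rows for 8 named processed pseudogenes of members held at most 12 counts per library, and pseudogenes listed under other names were not searched.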

How the data were processed

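The values analysed are the authors' deposited raw counts of reads for every gene in 6 libraries, in a table that also holds gene positions, biotypes and lengths. Per the submitters' processing notes, HISAT2 2.0.5 and mm10 were used. How reads were counted, with which annotation and strand setting, is not given in the sources. The deposited gene length equals the merged exons in GENCODE vM21 for 98.0% of matched identifiers and for 49 of the 52 members. Columns were matched to libraries by the sample name in the labels. The members and lists were chosen with earlier results of these data known.

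All genes passing filterByExpr (14706) were fitted together with TMM factors in edgeR 4.0.16 (R 4.3.3; glmQLFit, robust, treatment as the single term), uridine was compared with vehicle by the quasi-likelihood F test, and p-values were adjusted by Benjamini-Hochberg over all tested genes. A call is an adjusted p under 0.05. The SE is the log2 change divided by the square root of F. For the length alternatives, a lowess curve (span 0.5) of log2 CPM (prior count 2) over log2 length was fitted per library and its deviation from the mean of the libraries entered as an offset. Levels are CPM or RPKM with the TMM factors, and transcript length is the median over basic protein-coding transcripts. The fit and the length step were tested on simulated data. Genes were named by the symbol rule: per-library values for up to 8 smallest p-values among called genes of a complex, the highest and lowest level per length, and the subunits of complex II. Atp5l is given per library besides this rule and was chosen after its values were seen. Libraries of a group gave a chi-square of 2.28 to 2.52 per gene between each other, so none was treated as a repeat deposit. Promoter windows are from RefSeq (GRCm38.p6).

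The alternatives tried were other count filters, size factors and the Wald test of DESeq2 1.42.0, protein-coding genes without the mitochondrial genome, the length trends, the replicate number as a block, and each library left out. Same-numbered libraries did not deviate together, so the block was not used.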

Additional observations from a re-analysis of the deposited data

How the results depend on the processing

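The 23 rising members became 14 with the deposited length trend removed, 14 with that trend and the replicate block, and 11 with the transcript length trend removed, and were 19 to 22 with a library left out and 21 with the replicate block alone. The counts for complexes II, III, IV and V were 0, 1, 3 and 10 with the length trend, with or without the block, and 0, 2, 1 and 8 with transcript length. Complex II also had 0 under DESeq2's Wald test, without a count filter and under the block, and 0 to 1 with a library left out. Medians of log2 change with the length trend were 0.063 for all members, 0.0586 for complex III, -0.0258 for complex IV and 0.0873 for complex V; with the trend and the block they were 0.0631, 0.0586, -0.0247 and 0.0883, and with transcript length 0.0448, 0.0247, -0.0239 and 0.0688. With a library left out they ran from 0.0868 to 0.125 for all members, 0.0346 to 0.0923 for complex II, 0.0321 to 0.128 for complex IV and 0.0958 to 0.138 for complex V. A mean count of at least 50 removed low isoforms and gave 0.163 for complex IV. Scaled as TPM, the summed levels changed by 0.0332 (complex II), 0.123 (III), 0.096 (IV) and 0.106 (V) on the log2 scale.

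Of genes not called, signs turned for Cox4i1 (-0.0404 with the length trend, -0.0398 with the block too, -0.0671 with transcript length, -0.00841 without vehicle replicate 2 and up to 0.0352 with a library left out), Cox6a1 (-0.0639, -0.0641 and -0.063 in the same first 3 settings), Cox7a2 (-0.0258, -0.0247 and -0.0332), Sdhb (0.00534 and 0.00177 without vehicle replicate 2 and 3, from -0.0409 with a library left out) and Cox5a (0.00592 without uridine replicate 1, from -0.0337 with a library left out). The cause was not tested. The correlation of deviations between same-numbered libraries was -0.0151, 0.0267 and -0.0141, so no shared deviation by number was seen. These values cannot tell whether same-numbered libraries share mice or cultures, which the labels leave unstated. With 3 libraries a group and changes of this size, a gene that did not pass the test is not shown to be unchanged.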
